A study of Mus musculus with 10 samples.

Results

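Oxidative phosphorylation genes encode the subunits of the respiratory chain and of ATP synthase. They were taken as the lines of the deposited table whose symbols name subunits of complexes I to V, with a mean over the 10 tumours of at least 1 FPKM (fragments per kilobase of exon, scaled to sequencing depth), keeping for each symbol the line with the highest mean. The symbol pattern matched 101 symbols, of which 97 passed the mean and are described here, among 55020 lines in the table and 14496 lines that passed the same mean. The 97 were 13 subunits encoded by mitochondrial DNA, 76 subunits encoded in the nucleus, 3 nuclear genes of associated factors (Cox7a2l, Atp5s and Atp5sl) and 5 pseudogenes (Atp5k-ps2, Atp5l-ps1, Atp5l-ps2, Atp5l2-ps and Uqcrh-ps1). The 4 that stayed below the mean were Cox6b2, Cox7b2, Cox8b and Cox8c.

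The tumours grew from Hepa1-6 cells, a mouse hepatoma line, placed under the skin of C57/BL6 mice and left for 4 weeks. Polyadenylated RNA was sequenced from 5 tumours given vehicle (numbered 1, 2, 3, 5 and 6) and 5 tumours given GSK343 (numbered 1 to 5), which inhibits EZH2, a histone methyltransferase. The series text calls the tumours biological replicates, and p-values here set the difference of the group means against the spread between tumours. GSK343 tumours were recognised by a title that begins with G, and vehicle tumours, whose titles begin with C, by elimination. The protocol also mentions antibody injections, either control or anti-asialo-GM1, without tying them to single tumours. The comparison asks whether EZH2 inhibition was accompanied by a difference in the messages of the respiratory chain, and whether messages of the mitochondrial genome and of the nuclear genome differed alike.

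Complexes I to IV pass electrons from NADH and succinate to oxygen and pump protons out of the mitochondrial matrix (complex II carries electrons but pumps none), and complex V, the ATP synthase, makes ATP from the return flow. Complex II is encoded entirely in the nucleus, and the other complexes are built from products of both genomes. The mitochondrial genome is transcribed from a few promoters into long precursors that are cut into single messages, while each nuclear subunit has a promoter of its own, in many cases with sites for NRF1 and ETS-family factors. Liver and striated muscle carry different isoforms of several cytochrome c oxidase subunits.

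Some of these messages cannot be counted apart from other sequences, which bears on the values of those mitochondrial subunits. The mouse nuclear genome holds copies of mitochondrial DNA. Of the 13 mitochondrial messages, 8 had a copy of at least 95% identity with a mean of at least 1 FPKM in the table. The search covered GENCODE M21 transcripts only, so copies that are not annotated there would be missed. Among the 5 messages for which no such copy was found were mt-Atp8 and mt-Cytb. There were 7 such copies on chromosome 1 (24611535 to 24616197) and 3 on chromosome 2 (22587291 to 22590533; both mm10). The first 100 bases of mt-Co2, which encodes a catalytic subunit of complex IV (chrM:7013-7112, GENCODE M21 on GRCm38), are shown with the aligned bases of its copies on chromosomes 1 and 2, because their reads show how far the genomes can be told apart. Capitals mark bases that differ from mt-Co2.
mt-Co2: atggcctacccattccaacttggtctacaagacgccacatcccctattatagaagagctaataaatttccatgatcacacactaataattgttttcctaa
RP23-8J15.2: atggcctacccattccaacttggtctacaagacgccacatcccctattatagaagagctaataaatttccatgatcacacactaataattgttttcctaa
RP23-407K8.4: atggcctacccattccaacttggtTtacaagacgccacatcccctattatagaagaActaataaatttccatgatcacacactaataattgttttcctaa
The copy on chromosome 1 did not differ from mt-Co2 at any of its 681 bases, and the copy on chromosome 2 differed at 16 of 672. The table gave the chromosome 1 copy 91.0% to 100.3% of the mt-Co2 value in the same tumour, and the chromosome 2 copy 8.59% to 12.1%. For mt-Co3, whose copy is also identical, the copy's value was 1.001 times that of mt-Co3 in every tumour. Reads of mt-Co1, mt-Co2, mt-Co3, mt-Atp6, mt-Nd3, mt-Nd4l and part of mt-Nd4 therefore stand on 2 or more lines, and a mitochondrial value below is that of the mitochondrial line alone unless the copies are said to be added.

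A pair of subunits of complex V share part of their sequence. The bases on either side of the border of mt-Atp8 and mt-Atp6 (chrM:7907-7989, GENCODE M21 on GRCm38) are shown because the ratio of these messages is reported below, and capitals mark the 43 bases that lie in both reading frames.
mt-Atp8 and mt-Atp6: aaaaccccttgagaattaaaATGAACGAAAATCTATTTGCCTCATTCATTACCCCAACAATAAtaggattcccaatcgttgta
These bases are 21.1% of the 204 bases of mt-Atp8. Both frames are known to be carried by 1 mature RNA, as are mt-Nd4l and mt-Nd4, which share 7 bases.

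The promoters of the nuclear subunits were read from RefSeq (GRCm38.p6, 250 bases before to 50 bases after the start), where 63 of the 76 genes matched, with 68 promoters. The NRF1 letters GCGCANGC occurred on either strand in 35.3% of them, against 9.95% of all 32851 promoters of the table. The ETS letters CCGGAAG occurred in 23.5% against 8.86%, the YY1 letters AAGATGGC in 14.7% against 2.75%, and the letters TCAAGGTCA of the oestrogen-related receptors in 2.94% against 0.423%. A match describes letters and is no evidence of binding. The 250 bases before the start are shown for the ubiquitous isoform Cox6a1 (chr5:115348959-115349208, minus strand), the complex II subunit Sdha (chr13:74350241-74350490, minus strand) and the muscle isoform Cox7a1 (chr7:30183921-30184170, plus strand), whose levels are compared below. Capitals mark matches to the NRF1 and ETS letters, and overlapping NRF1 matches run together.
Cox6a1: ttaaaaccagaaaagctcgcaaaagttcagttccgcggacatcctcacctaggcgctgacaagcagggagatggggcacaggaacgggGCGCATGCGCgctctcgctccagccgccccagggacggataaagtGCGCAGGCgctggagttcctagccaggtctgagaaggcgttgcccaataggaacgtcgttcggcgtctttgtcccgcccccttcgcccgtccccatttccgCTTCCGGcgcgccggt
Sdha: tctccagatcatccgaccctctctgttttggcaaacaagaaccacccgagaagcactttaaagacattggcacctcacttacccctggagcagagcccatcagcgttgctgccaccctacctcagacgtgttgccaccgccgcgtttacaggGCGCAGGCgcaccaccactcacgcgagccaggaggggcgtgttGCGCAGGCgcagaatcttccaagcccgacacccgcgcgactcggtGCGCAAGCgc
Cox7a1: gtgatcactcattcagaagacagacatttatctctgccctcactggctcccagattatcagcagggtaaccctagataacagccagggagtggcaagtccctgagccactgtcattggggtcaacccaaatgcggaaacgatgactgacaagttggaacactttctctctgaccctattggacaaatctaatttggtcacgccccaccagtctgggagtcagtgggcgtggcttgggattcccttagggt
Over the whole window Cox6a1 held 3 NRF1 matches and 1 ETS match, Sdha held 3 NRF1 matches, and Cox7a1 held none of the 4 motifs.

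The number of lines at 1 FPKM or more was 13985 to 14348 in vehicle and 14355 to 14714 in GSK343 tumours, so the groups did not overlap; its part in the results was not tested. GSK343 tumours 3 and 5 stood apart in mitochondrial RNA, at 7.17% and 7.11% of the FPKM sum for all lines of the mitochondrial chromosome against 2.63% to 5.05% in the other 8 tumours, so results that rest on them are given with and without them. The labelled hepatoma was visible in its markers: the summed level of 8 hepatocyte and hepatoma genes, led by Alb and Afp, was 6121 to 7979 FPKM in vehicle and 4802 to 6621 FPKM in GSK343 tumours, and none was at 0. Over all lines, 12 passed limma's test at an adjusted p under 0.05 (0.0828% of 14496), and the median log2 fold change was -0.01.

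None of the 97 oxidative phosphorylation genes passed the test of GSK343 against vehicle (limma, Benjamini-Hochberg over all 14496 lines, smallest adjusted p = 0.201, for Cox6a2). At an unadjusted p under 0.05, 5 of the 97 were higher and 4 lower in GSK343 tumours, beside 10.7% and 6.86% of all lines, so neither share exceeded the background. Without GSK343 tumours 3 and 5, 0 of the 97 were higher and 3 lower (mt-Co2, mt-Cytb and Atp5l-ps1), beside 4.84% and 1.67% of all lines. In no member did the groups separate completely, against 1.42% of all lines that did so upward and 1.20% downward. The number of members called was also 0 under all alternative settings tried. The median log2 fold change was 0.29 over the 13 mitochondrial subunits and -0.01 over the 76 nuclear subunits, beside -0.01 over all lines tested. The mitochondrial median thus stood above the others, and without GSK343 tumours 3 and 5 it was -0.20, beside 0.02 over all lines, and the nuclear median stayed within 0.01 of 0.

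The messages of the 2 genomes differed in how much they varied between tumours. Summed FPKM of the 13 mitochondrial messages was 2.56%, 3.45%, 3.88%, 3.33% and 4.71% of the library's total in vehicle tumours 1, 2, 3, 5 and 6, and 3.54%, 3.44%, 6.64%, 2.44% and 6.67% in GSK343 tumours 1 to 5. GSK343 tumours 3 and 5 were the highest of all 10 and GSK343 tumour 4 was the lowest, so the groups overlapped. The means were 3.59% ± 0.787 in vehicle and 4.55% ± 1.97 in GSK343 tumours (SD, n = 5 each), and 3.14% ± 0.610 (n = 3) without GSK343 tumours 3 and 5. The difference of the means, 0.959 percentage points, was larger than the SD of the vehicle tumours and smaller than that of the GSK343 tumours. It had the opposite sign, -0.446, without GSK343 tumours 3 and 5. The 76 nuclear messages together made up 1.68% ± 0.0387 in vehicle and 1.60% ± 0.0898 in GSK343 tumours. Their lowest shares, 1.54% and 1.47%, were again those of GSK343 tumours 3 and 5, and the other 8 tumours lay between 1.62% and 1.73%. The ratio of the mitochondrial to the nuclear sum was therefore 4.30 and 4.53 in these tumours, against 1.45 to 2.82 in the others. Taken over the sum without lines of the mitochondrial chromosome, the nuclear share was 1.74% ± 0.0474 in vehicle and 1.68% ± 0.0604 in GSK343 tumours. With this divisor GSK343 tumours 3 and 5, at 1.66% and 1.59%, were the lowest of all 10, next to vehicle tumour 1 at 1.67%. The divisor still contained the copies on chromosomes 1 and 2. Their share of all FPKM was 5.38% and 5.35% for GSK343 tumours 3 and 5. For the remaining tumours it ran from 1.99% (GSK343 tumour 4) to 3.72% (vehicle tumour 6). The order of the tumours with the copies also removed was not tested.

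**Figure D1:**
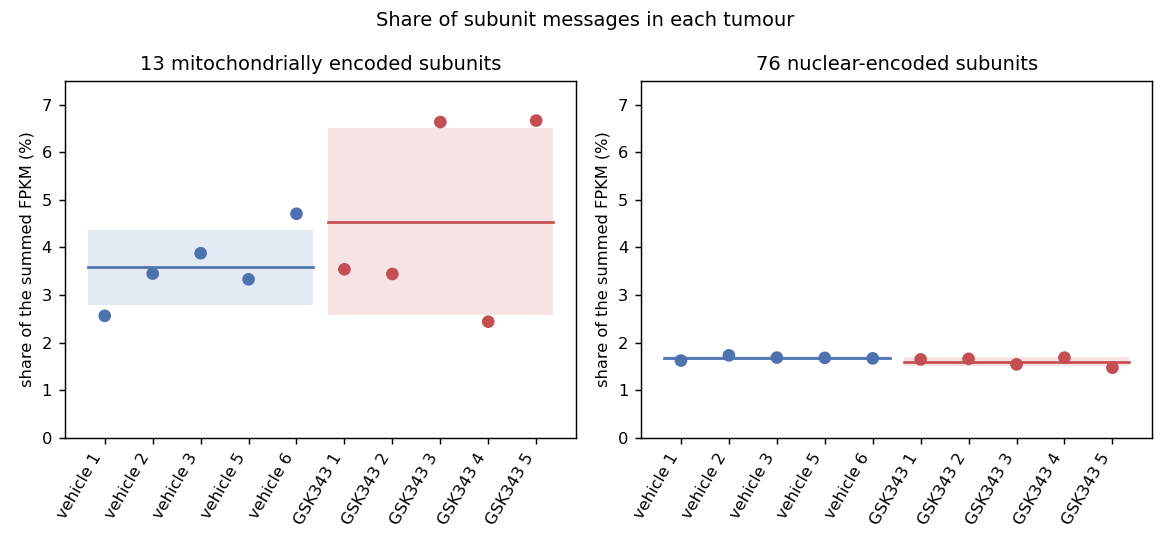
Share of the summed FPKM (%, vertical axis) held by the 13 mitochondrially encoded subunits (left) and the 76 nuclear-encoded subunits (right) in each tumour (horizontal axis, blue vehicle and red GSK343); lines are group means and bands 1 SD. The mitochondrial share runs from 2.44% to 6.67% with GSK343 tumours 3 and 5 highest, and the nuclear share stays between 1.47% and 1.73%.

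Summed markers of skeletal muscle and of leukocytes had a higher median in the GSK343 group and were highest in GSK343 tumours 3 and 5. This did not hold for all marker lists: white adipocyte and keratinocyte markers had median log2 fold changes of -0.85 and -1.16. The summed level of 18 skeletal muscle markers was 17.1 to 152 FPKM in vehicle and 92.1 to 595 FPKM in GSK343 tumours. It was 595 and 257 FPKM in GSK343 tumours 3 and 5. Of the 15 tested, 12 were higher at an unadjusted p under 0.05 (none adjusted), beside 10.7% of all lines. Without GSK343 tumours 3 and 5, 2 of 15 were higher, beside 4.84% of all lines. Of the 18, 8 were at 0 in 1 tumour or more, and none in all. The summed level of 7 pan-leukocyte markers was 275 to 777 FPKM in vehicle and 540.5 to 911 FPKM in GSK343 tumours, highest in GSK343 tumours 3 and 5 at 904 and 911 FPKM. At an unadjusted p under 0.05, 5 of 7 were higher, beside 10.7% of all lines. Without those tumours 1 of 7 was higher, beside 4.84% of all lines. None of the 7 was at 0 in any tumour. Vehicle tumour 2, the lowest in muscle markers at 17.1 FPKM, was the highest vehicle tumour in leukocyte markers at 777 FPKM. Their part in the mitochondrial share was not tested. In RNA of whole tumours, fewer cells of a type and less RNA per cell cannot be told apart.

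The mitochondrial messages of complex I encode its membrane arm. The most abundant was mt-Nd1 (chromosome M, 2751 to 3707), at 1128, 1559, 1807, 1762 and 2480.0 FPKM in vehicle tumours 1, 2, 3, 5 and 6 and at 1570.1, 1613, 2923, 1268 and 2846 FPKM in GSK343 tumours 1 to 5. Only GSK343 tumours 3 and 5 exceeded the vehicle range (log2 fold change 0.19, 95% interval -0.41 to 0.79, limma adjusted p = 0.746). The lowest of the 13 was mt-Nd5, at 92.7 to 184 FPKM in vehicle and 82.1 to 325 FPKM in GSK343 tumours, with the highest values, 276 and 325 FPKM, in tumours 3 and 5. The small subunit mt-Nd4l had the second largest log2 fold change of the 13, 0.59 (158 ± 61.8 and 251 ± 133 FPKM, limma adjusted p = 0.432), and 0.04 without GSK343 tumours 3 and 5. The log2 fold changes of mt-Nd2, mt-Nd3, mt-Nd4 and mt-Nd6 were 0.14, -0.01, 0.29 and 0.13, each smaller than its standard error of 0.30 to 0.34. The gene of mt-Nd6 lies on the opposite strand and overlaps mt-Nd5 at bases 13552 to 13565. Without strand information their reads cannot be told apart there, and the strand setting is not given in the sources used here.

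Cytochrome b, encoded by mt-Cytb and the catalytic core of complex III, was 1062, 1259, 1597, 1515 and 2247 FPKM in vehicle and 1076, 1168, 2123, 776 and 2599.9 FPKM in GSK343 tumours, in the same order. It was the only one of the 13 in which GSK343 tumour 3 did not exceed every vehicle tumour, and its log2 fold change was the lowest, -0.09 (limma adjusted p = 0.915), and -0.58 without GSK343 tumours 3 and 5. In the other 12 messages both of these tumours lay above all 8 others. That pattern held in 3 of the 76 nuclear subunits (Ndufb4, Cox6a2 and Cox7b) and in 7.66% of all lines tested.

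The catalytic core of complex IV is encoded by mt-Co1, mt-Co2 and mt-Co3. The message of mt-Co1, the subunit that binds oxygen, was 3389, 4543, 4738, 3914 and 5688 FPKM in vehicle and 4623, 4296, 9220.2, 3376 and 8787 FPKM in GSK343 tumours (log2 fold change 0.35, 95% interval -0.28 to 0.98, limma adjusted p = 0.546). The log2 fold change was 0.07 for mt-Co2 (2546 ± 467 and 2883 ± 1369 FPKM) and 0.38 for mt-Co3 (2971 ± 581 and 4089 ± 1759.7 FPKM). All 3 had the reverse sign without GSK343 tumours 3 and 5, at -0.11, -0.42 and -0.06.

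The 2 mitochondrial subunits of complex V, mt-Atp6, part of the proton channel, and the small mt-Atp8, did not keep the same ratio. The message of mt-Atp6 was the most abundant of all 97, at 3850.2 to 6381 FPKM in vehicle and 3538 to 9649 FPKM in GSK343 tumours (log2 fold change 0.29, limma adjusted p = 0.602). The message of mt-Atp8 was 392, 448, 705, 514 and 859 FPKM in vehicle tumours 1, 2, 3, 5 and 6 and 661, 871, 2050.0, 603 and 1662 FPKM in GSK343 tumours 1 to 5. It had the largest log2 fold change of all 97 genes, 0.89 (95% interval 0.08 to 1.69, limma unadjusted p = 0.0333, adjusted p = 0.249), and was the only one of the 13 with an unadjusted p under 0.05. Without GSK343 tumours 3 and 5 the log2 fold change of mt-Atp8 was 0.33, one of 2 mitochondrial values above 0, with mt-Nd4l. The line of mt-Atp8 shares 43 of its 204 bases with mt-Atp6, and how reads were divided between the 2 lines is not given in the sources used here.

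**Figure D2:**
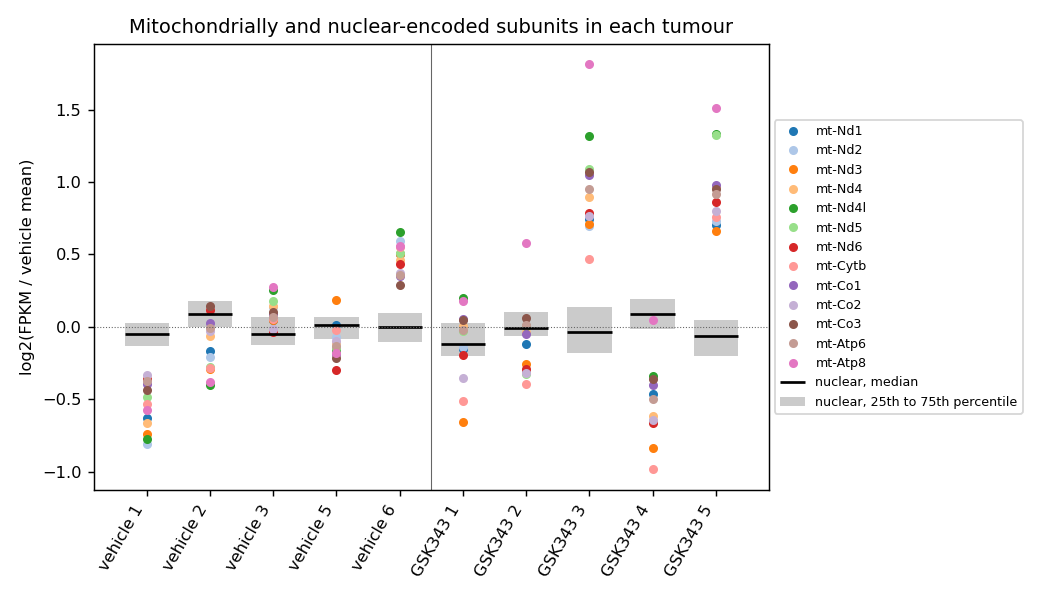
Level of each of the 13 mitochondrially encoded messages in each tumour (horizontal axis) as log2 of its FPKM over its own vehicle mean (vertical axis; coloured points), with the median and the 25th to 75th percentile of the 76 nuclear subunits (black line and grey box). The 13 messages lie above the nuclear box in GSK343 tumours 3 and 5, and mt-Atp8 is the highest point in both.

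Within each tumour the mitochondrial messages were then expressed as a share of their own sum, which removes the difference between tumours in their total. On this scale mt-Co2 was 12.9%, 11.9%, 11.1%, 12.1% and 11.6% of the 13 in vehicle tumours and 9.81%, 9.99%, 10.5%, 10.7% and 10.9% in GSK343 tumours. All GSK343 tumours lay below all vehicle tumours (11.9% ± 0.649 and 10.4% ± 0.483). For mt-Atp8 the shares were 2.50%, 2.14%, 3.11%, 2.61% and 3.03% in vehicle and 3.25%, 4.26%, 4.97%, 3.97% and 4.11% in GSK343 tumours. Here all GSK343 tumours lay above all vehicle tumours (2.68% ± 0.399 and 4.11% ± 0.618). These were 2 of 13 messages, and 0.276% of all lines separated in either direction when divided by the same sum. The 13 messages are the parts of that sum, which the other lines are not, so the 0.276% cannot serve as their background. Undivided, 1.42% of all lines separated upward and 1.20% downward. For mt-Cytb 1 GSK343 tumour, tumour 5, overlapped the vehicle range, at 6.01% to 7.92% in vehicle and 5.11% to 6.43% in GSK343 tumours. The other 10 overlapped.

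The separation of mt-Co2 and mt-Atp8 was also present with the copies in the nuclear genome added to the 8 messages that had one. No copy was found for mt-Atp8 among annotated transcripts, so none was added to it, and its share fell because the sum rose. The copies of mt-Co2 and mt-Atp6, which flank it on chromosome M, lie on chromosome 1 at 24614885 to 24615565 and 24613974 to 24614651. The stretch between these copies was not searched, so adding copies is no check of the separation of mt-Atp8. Leaving out GSK343 tumours 3 and 5 could not have made separated groups overlap, so it is no check of the separation. With the copies added, mt-Co2 was 13.5% ± 0.405 of the sum in vehicle and 12.03% ± 0.563 in GSK343 tumours, and mt-Atp8 was 1.48% ± 0.238 and 2.27% ± 0.342. As a percentage of mt-Atp6, the neighbour on the same RNA, mt-Atp8 was 10.2%, 9.05%, 13.5%, 11.3% and 13.5% in vehicle and 13.4%, 17.3%, 21.2%, 17.0% and 17.6% in GSK343 tumours. GSK343 tumour 1 fell just below 2 vehicle tumours, and the other 4 GSK343 tumours were above all vehicle tumours. As 1 RNA carries both frames, a difference in this ratio or in the share of mt-Atp8 need not be one of message level. It can also depend on how reads were divided between the 2 lines and the mt-Atp6 copy on chromosome 1. The line of that copy stood at 1.01 to 1.07 times mt-Atp6. The other pair on 1 RNA, mt-Nd4l as a percentage of mt-Nd4, was 16.7% ± 2.35 and 20.5% ± 2.08, and overlapped. These shares were examined after the fold changes had been seen, and they carry no test.

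**Figure D3:**
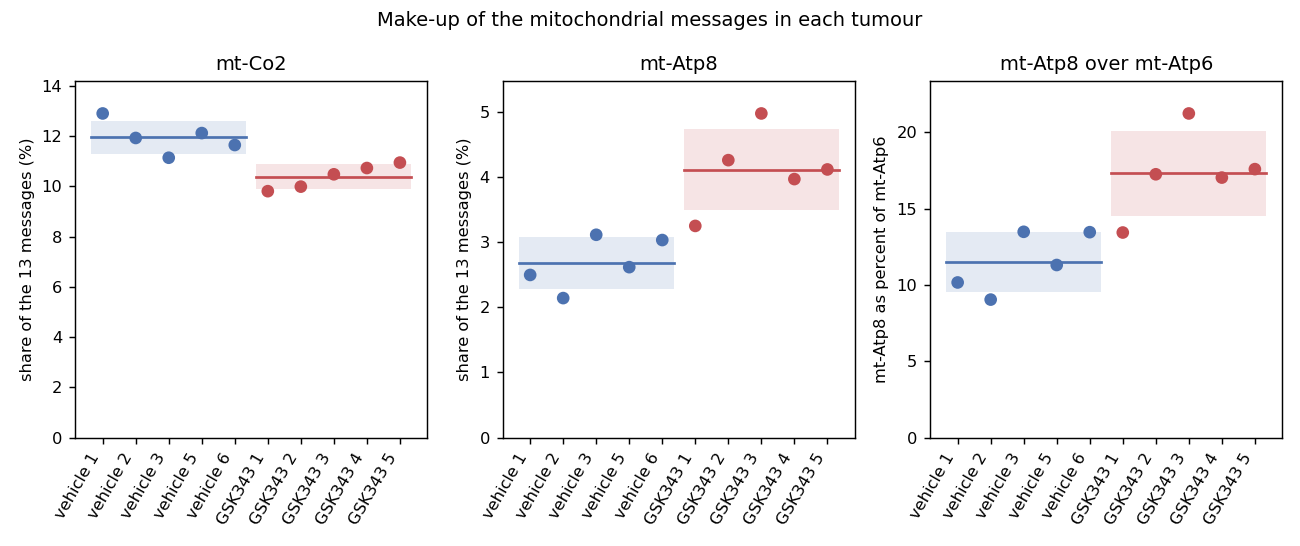
Share of mt-Co2 (left) and mt-Atp8 (middle) in the summed FPKM of the 13 mitochondrial messages, and mt-Atp8 as a percentage of mt-Atp6 (right), in each tumour (blue vehicle, red GSK343; lines are group means, bands 1 SD). The mt-Co2 points of the GSK343 tumours lie at 9.81% to 10.9%, below the vehicle tumours, and their mt-Atp8 points at 3.25% to 4.97%, above them.

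The nuclear subunits of complex I were close to level between the groups. Of 35, 12 had a log2 fold change above 0 and 23 below, with a median of -0.03. At an unadjusted p under 0.05, 1 was higher and 3 lower, beside 10.7% and 6.86% of all lines. Ndufa1, an accessory subunit, was 50.8, 70.3, 57.7, 63.3 and 59.96 FPKM in vehicle and 61.6, 73.4, 82.5, 79.0 and 70.2 FPKM in GSK343 tumours (log2 fold change 0.28, limma adjusted p = 0.221). Lower were Ndufa10 (63.8 ± 6.52 and 55.4 ± 3.72 FPKM), Ndufb9 (248 ± 22.6 and 215 ± 19.5 FPKM) and Ndufb8 (118 ± 15.7 and 98.6 ± 14.5 FPKM), with log2 fold changes of -0.20, -0.21 and -0.26 and limma adjusted p of 0.247, 0.257 and 0.285. In all 4 the groups overlapped. Of the core subunits that carry electrons towards ubiquinone, Ndufs1 gave a log2 fold change of 0.12 and Ndufv1 of 0.01, and the accessory subunit Ndufa9 gave -0.09. The widest difference of the complex was that of Ndufa6, -0.43 with an interval of -1.26 to 0.39.

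Succinate dehydrogenase, complex II, is also an enzyme of the citric acid cycle. Its membrane anchors Sdhc and Sdhd had the smallest ranges of the 76 nuclear subunits, 1.15-fold and 1.16-fold between the lowest and the highest tumour. The log2 fold changes were 0.04 for the flavoprotein Sdha (77.5 ± 7.05 and 79.4 ± 4.59 FPKM), 0.16 for the iron-sulphur subunit Sdhb, -0.05 for Sdhc and -0.10 for Sdhd. Their intervals together ran from -0.21 to 0.37, so a difference of 0.5 on the log2 scale lay outside the interval of each.

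In complex III the core subunits Uqcrc1 and Uqcrc2 gave log2 fold changes of -0.05 and 0.01, and the Rieske iron-sulphur protein Uqcrfs1 gave -0.11. The range over the 8 nuclear subunits was -0.27, for Uqcr11, to 0.09. Uqcrq was unsteady within both groups, at 56.7, 73.6, 168, 22.2 and 22.7 FPKM in vehicle and 58.9, 22.5, 67.2, 65.1 and 63.9 FPKM in GSK343 tumours. Vehicle tumour 3 was high and vehicle tumours 5 and 6 and GSK343 tumour 2 were low, without regard to treatment.

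Among the 14 nuclear subunits of complex IV, 11 had a log2 fold change above 0, with a median of 0.07. The most abundant, Cox4i1, a regulatory subunit, was 874, 925, 595, 824 and 742 FPKM in vehicle and 718, 572, 685, 880.3 and 331 FPKM in GSK343 tumours. GSK343 tumour 5 was the lowest of all, and the log2 fold change of -0.37 was -0.14 without GSK343 tumours 3 and 5 (limma adjusted p = 0.435 with all tumours). Its hypoxia-linked isoform Cox4i2 was at 1.16% to 2.75% of Cox4i1. Ndufa4, first described with complex I and now counted with complex IV, had the lowest log2 fold change of all 97 genes, -0.60 (limma adjusted p = 0.306), and -0.27 without GSK343 tumours 3 and 5. It was 249.8, 207, 281, 161 and 314 FPKM in vehicle and 229.8, 268, 111, 122 and 109 FPKM in GSK343 tumours, so that 3 of the 5 GSK343 tumours lay below all vehicle tumours and 2 within their range. The log2 fold changes of Cox5a, Cox5b, Cox6a1, Cox7a2, Cox7b and Cox8a were 0.00, 0.10, -0.11, 0.10, 0.14 and 0.02. Cox7a2l, a factor that joins complexes III and IV, was 147 ± 10.9 and 136.5 ± 13.1 FPKM (log2 fold change -0.11). The log2 fold change of Cox6b1 was 0.37 with a standard error of 0.37 (0.19 without GSK343 tumours 3 and 5), on values of 73.8 to 228 FPKM in vehicle and 107 to 233 FPKM in GSK343 tumours.

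The muscle isoforms of complex IV were the nuclear subunits with the largest log2 fold changes upward, at very low levels. Cox6a2, the isoform of heart and skeletal muscle, was 1.121, 0.606, 1.37, 0.485 and 0.968 FPKM in vehicle and 1.03, 1.59, 3.64, 2.004 and 2.42 FPKM in GSK343 tumours (log2 fold change 0.68, 95% interval 0.20 to 1.16, limma unadjusted p = 0.00956, adjusted p = 0.201). Tumours 3 and 5 were the highest of all 10, and without them the log2 fold change of Cox6a2 was 0.41 (limma unadjusted p = 0.0618). Of the GSK343 tumours, only tumour 1 was within the vehicle range. Cox7a1 was 2.15, 2.04, 1.36, 1.38 and 1.17 FPKM in vehicle and 1.71, 4.15, 4.04, 2.39 and 1.91 FPKM in GSK343 tumours (log2 fold change 0.52, limma unadjusted p = 0.0293, adjusted p = 0.242). Tumours 2, 3 and 4 were above all vehicle tumours. Cox8b, which did not reach the mean for testing, was listed at 0 in vehicle tumours 2, 5 and 6 and GSK343 tumours 1 and 2, at 0.763 and 0.582 FPKM in vehicle tumours 1 and 3, and at 2.42, 1.11 and 1.42 FPKM in GSK343 tumours 3, 4 and 5.

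These isoforms stood beside ubiquitous ones that were many times as abundant. Cox6a2 was 0.125% to 1.125% of Cox6a1, Cox7a1 was 0.862% to 2.99% of Cox7a2, and Cox8b was 0.789% of Cox8a at most. In the same tumours the summed skeletal muscle markers were 152, 17.1, 136, 67.3 and 112 FPKM in vehicle and 92.1, 218, 595, 242 and 257 FPKM in GSK343 tumours. GSK343 tumour 3, highest in the muscle markers, was highest in Cox6a2 and Cox8b, while Cox7a1 was highest in GSK343 tumour 2, which was behind GSK343 tumours 3, 4 and 5 in the markers. GSK343 tumour 1, lowest of its group in the markers, was lowest of its group in Cox6a2 and Cox7a1, while vehicle tumour 2, the lowest of all 10 in the markers, had the second highest Cox7a1 of the vehicle tumours. Mb, the myoglobin gene, was 1.08 ± 0.830 and 4.38 ± 2.04 FPKM (log2 fold change 1.38, limma adjusted p = 0.191). Of 4 cardiac and slow muscle markers, Myl2 and Myl3 were at 0 in all tumours, Myh7 was above 0 in 2, and Tnnc1 was 2.91 to 5.05 FPKM in vehicle and 2.56 to 4.94 FPKM in GSK343 tumours. Of 6 brown adipocyte genes, Ucp1 was at 0 in all tumours, and the 6 summed to at most 0.718 FPKM in a vehicle tumour and 1.5 FPKM in a GSK343 tumour. The part of muscle RNA in Cox6a2 and Cox7a1 was not tested. The testis isoforms Cox8c and Cox7b2 were at 0 in all tumours, and Cox6b2 was at 0 to 1.03 FPKM.

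**Figure D4:**
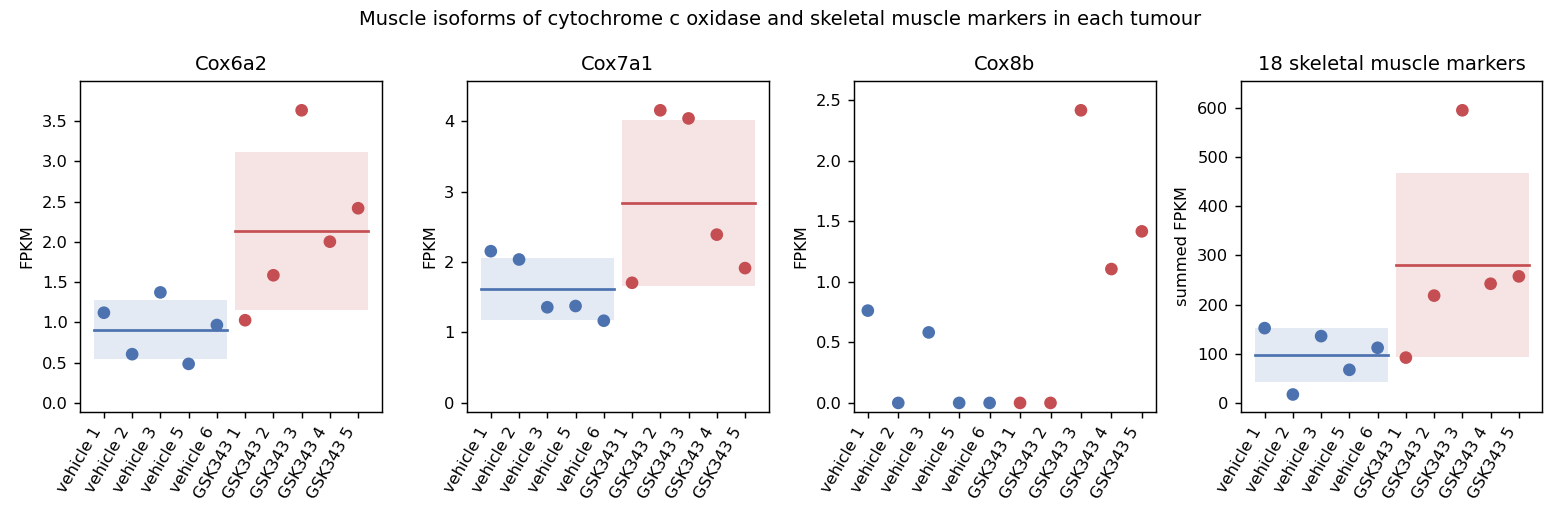
FPKM of the muscle isoforms Cox6a2, Cox7a1 and Cox8b and the summed FPKM of 18 skeletal muscle markers in each tumour (blue vehicle, red GSK343); lines are group means and bands 1 SD, not drawn for Cox8b, which is listed at 0 in 5 tumours. GSK343 tumour 3 is highest in Cox6a2 (3.64), Cox8b (2.42) and the markers (595).

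In complex V the catalytic subunits differed little. Atp5b, the beta subunit, was 679 ± 45.2 and 647 ± 59.6 FPKM (log2 fold change -0.07), and Atp5a1, the alpha subunit, was 346 ± 11.9 and 312 ± 22.8 FPKM (log2 fold change -0.15, limma unadjusted p = 0.0432, adjusted p = 0.271; -0.08 without GSK343 tumours 3 and 5). The median over the 15 nuclear subunits was -0.01. The 3 genes Atp5g1, Atp5g2 and Atp5g3 encode the same mature subunit c of the rotor ring. Atp5g1 was the least steady of the 97, at 93.7, 49.9, 85.6, 15.5 and 14.0 FPKM in vehicle and 84.0, 7.62, 80.9, 70.3 and 63.2 FPKM in GSK343 tumours, a 12.3-fold range. Its copy on chromosome 11, RP23-392I3.13 (99.8% identical over 411 bases), stayed between 40.7 and 54.9 FPKM, and how the authors' counting divided reads between these lines is not given in the sources used here. Atp5g2 was 103 ± 9.66 and 99.96 ± 14.1 FPKM, Atp5g3, the most abundant of the 3, was 354 ± 30.5 and 328 ± 28.7 FPKM, and the 3 together were 509 ± 18.9 and 489 ± 43.3 FPKM. Of the pseudogenes, Atp5k-ps2 was higher at an unadjusted p under 0.05 (6.58 ± 1.87 and 9.94 ± 2.96 FPKM, limma adjusted p = 0.246), and its reads may belong to Atp5k.

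**Figure D5:**
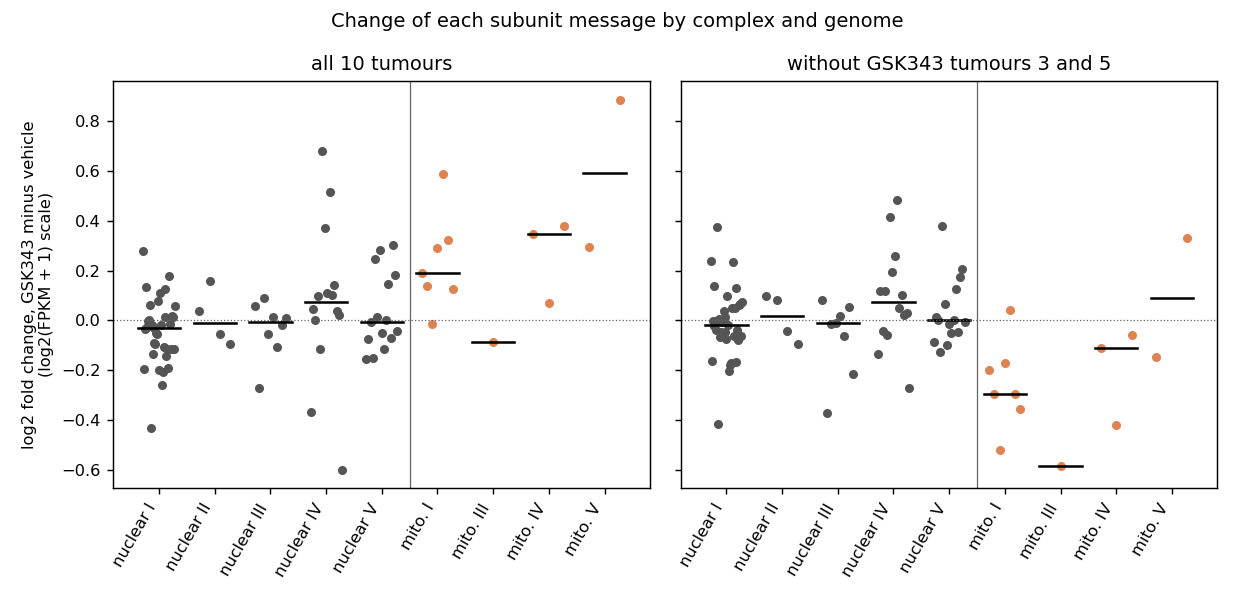
Log2 fold change of each subunit message (GSK343 minus vehicle, log2(FPKM + 1) scale, vertical axis) by complex and genome (horizontal axis; grey nuclear, orange mitochondrial; bars are medians), with all 10 tumours (left) and without GSK343 tumours 3 and 5 (right). The nuclear medians stay near 0 in both panels, and the mitochondrial values move down, from a median of 0.29 over the 13 to -0.20.

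The precision of these comparisons differed between the genomes. The median standard error of the log2 fold change was 0.31 over the mitochondrial messages and 0.09 over the nuclear subunits. The 95% interval lay within 0.5 of 0 on the log2 scale for 59 of 76 nuclear subunits and for 0 of 13 mitochondrial ones, and within 1 of 0 for 70 of 76 and 10 of 13. Between the lowest and the highest tumour the median nuclear subunit varied 1.38-fold and the median mitochondrial message 2.90-fold, beside 1.48-fold for the 1885 lines with a mean over 50 FPKM. The 13 mitochondrial messages all varied more than 2-fold, as did 16 of the 76 nuclear subunits.

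Genes that copy, express and build the chain differed little in mean, and none of the genes in the lists that follow passed the adjusted test. Of 14 genes that copy or transcribe mitochondrial DNA, 0 were higher and 1 lower at an unadjusted p under 0.05, beside 10.7% and 6.86% of all lines. That gene, Twnk, the helicase of the mitochondrial replication fork, was 14.7 ± 1.23 and 12.03 ± 1.96 FPKM (limma adjusted p = 0.236), and Tfam, which packages mitochondrial DNA and starts its transcription, was 15.4 ± 1.995 and 13.2 ± 1.12 FPKM (limma adjusted p = 0.305). Of 20 genes that bind or degrade mitochondrial RNA 2 were lower, beside 6.86% of all lines, with Tbrg4 at 35.4 ± 3.47 and 30.6 ± 1.55 FPKM. In GSK343 tumours 3 and 5 Twnk was 10.4 and 9.74 FPKM and Tfam 11.9 and 12.2 FPKM, the 2 lowest values of each gene. These tumours were also the 2 lowest in 11.87% of all lines tested, and a link to mitochondrial RNA was not tested. The ribosomal RNAs of the mitochondrion, mt-Rnr1 and mt-Rnr2, summed to 665 and 531 FPKM in these tumours and to 172 to 402 FPKM in the others, but mt-Rnr1 is listed at 0 in vehicle tumour 5 and GSK343 tumour 4.

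Of 50 assembly factors of complexes I to V, 2 were higher and 2 lower at an unadjusted p under 0.05, fewer in each direction than the 10.7% and 6.86% of all lines would give, and 1 and 1 without GSK343 tumours 3 and 5. Higher were Pet117 (4.31 ± 0.967 and 5.86 ± 0.214 FPKM) and Pet100 (7.24 ± 1.46 and 9.48 ± 0.767 FPKM), both needed to assemble complex IV, at limma adjusted p of 0.192 and 0.202. Lower were Ecsit, for complex I (11.3 ± 0.680 and 8.99 ± 1.42 FPKM), and Cox19, for complex IV (13.1 ± 1.22 and 11.3 ± 0.987 FPKM). Of 14 citric acid cycle genes 0 were higher and 3 lower, beside 10.7% and 6.86% of all lines, and 1 was higher and 1 lower without GSK343 tumours 3 and 5. The 3 were Fh1, Suclg2 and Cs, the last, citrate synthase, at 95.1 ± 2.66 and 84.8 ± 4.89 FPKM (limma adjusted p = 0.213). Regulators of mitochondrial biogenesis, among them Nrf1, Gabpa, Esrra and Myc, numbered 9 tested, of which 0 reached an unadjusted p under 0.05. Ppargc1a, a coactivator prominent in muscle and brown fat, was below the mean for testing at 0.188 and 0.150 FPKM.

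Of 12 outer membrane and import genes of the mitochondrion, 7 were lower and 0 higher at an unadjusted p under 0.05, beside 6.86% of all lines lower. Without GSK343 tumours 3 and 5 none of the 12 was lower at that p, beside 1.67% of all lines. The list had a median log2 fold change of -0.18, and -0.12 without GSK343 tumours 3 and 5. The hepatocyte and hepatoma markers were lower with it, 3 of 8 at an unadjusted p under 0.05 (Apoa1, Ttr and Apoa2; median log2 fold change -0.25), and 0 of 8 without GSK343 tumours 3 and 5. GSK343 tumour 3 was the lowest tumour in both sums, at 1155 FPKM for the import list and 4802 FPKM for the markers, and the markers' part in the import list was not tested. Tomm40, the pore of the import complex, was 50.1 ± 2.102 and 42.8 ± 3.97 FPKM, and the receptor Tomm22 was 92.8 ± 13.8 and 73.7 ± 4.70 FPKM (limma adjusted p = 0.202 for each).

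Of 10 electron carriers and supercomplex factors tested, 1 was higher and 0 lower at an unadjusted p under 0.05, beside 10.7% and 6.86% of all lines, with a median log2 fold change of 0.08; Cyct, the testis form of cytochrome c, was at 0 in all tumours. The 1 was Slc25a4, the ADP/ATP carrier isoform of heart and muscle, at 17.2 ± 4.45 and 29.0 ± 7.12 FPKM (log2 fold change 0.72, limma unadjusted p = 0.00303, adjusted p = 0.191). It was highest in GSK343 tumours 3 and 5, at 38.4 and 34.7 FPKM, and its log2 fold change was 0.48 without them. Slc25a5, the isoform of proliferating cells, was 126 ± 20.6 and 149 ± 18.5 FPKM. The values of the muscle markers given above stand beside Slc25a4 too, and their part in it was not tested.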

How the data were processed

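RNA of 10 tumours was measured by sequencing of polyadenylated RNA. Per the submitters' processing notes the tools were Trimmomatic 0.33, HISAT2 2.1.0 and StringTie 1.3.3b with mm10. Tool options, strand setting and gene annotation were not given in the sources used here. The authors deposited 1 table of values per gene, read here as FPKM because tumour sums ran from 574547 to 623397; read depth is unknown, so no counting interval is given. The table also has 10 unnamed columns, all empty.

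Values were tested as log2(FPKM + 1), so fold changes of low genes are understated, with limma 3.58.1 (R 4.3.3; intensity trend, two-sided, Benjamini-Hochberg adjustment over the 14496 lines whose mean reached 1 FPKM, threshold 0.05). The procedure was tested on simulated data. Copies were found with blastn 2.17.0 (at least 95% identity over at least 100 bases and 50% of the shorter transcript). Python 3.11.15, pandas 2.3.3 and matplotlib 3.10.9 served for summaries and figures. The members and gene lists were chosen with earlier results of these data known. Genes named are all 13 mitochondrial messages, nuclear subunits listed by role, the 2 nuclear members with the smallest p in each complex, the 3 largest log2 fold changes in each direction and up to 2 genes with the smallest p from each pathway list. Ndufb9, Ndufb4, Uqcrq, Atp5k-ps2, Atp5l-ps1, Cs, Cox19, Slc25a5, Ppargc1a and the marker genes were named after their values were seen. The result of 1 subunit listed by role is not reported here. Alternatives were another pseudocount, filter, scaling, trend or replicate block, and leaving out tumours.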

Additional observations from a re-analysis of the deposited data

Results flagged for a closer look

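In 102 groups of 5 tumours tested for a distant value, 3 held one, where chance gives about 1 in 20. Atp5g1 was 7.622 FPKM in GSK343 tumour 2, against 63.2 to 84.0 FPKM in the other GSK343 tumours. Cox6b1 was 106.5 FPKM in GSK343 tumour 4, against 201 to 233 FPKM in the others. Ndufb8 was 123.5 FPKM in GSK343 tumour 2, against 87.3 to 97.2 FPKM in the others.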

How the results depend on the processing

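The number of oxidative phosphorylation genes called was 0 in all settings tried. Over all lines, the 12 calls became 6 with no filter, 3 with a mean of at least 5 FPKM, 7 with quantile normalization, 2 with the replicate block and 4 without GSK343 tumours 3 and 5, and 3 to 96 when 1 tumour was left out, with 96 without vehicle tumour 2 37 without GSK343 tumour 1, 11 without vehicle tumour 3, and 3 to 6 without any 1 of the other 7. The replicate numbers did not pair the tumours: deviations of the 4 same-numbered pairs correlated at -0.11, -0.33, 0.03 and -0.19. The mitochondrial median log2 fold change of 0.29 was 0.58 with the replicate block, 0.15 with quantile normalization, and 0.06 (without GSK343 tumour 5) to 0.49 (without GSK343 tumour 4) when 1 tumour was left out. It was -0.20 without GSK343 tumours 3 and 5, where 9 of the 13 messages changed sign. The nuclear median stayed between -0.06 and 0.02. The difference in mitochondrial share was 0.429 to 1.49 percentage points when 1 tumour was left out. Among alternatives chosen after seeing the data, adding the nuclear copies gave 1.72 percentage points for that share, and changed the difference in the share of mt-Atp8 from 1.43 to 0.794 percentage points and that of mt-Co2 from -1.56 to -1.49. No copy was added to mt-Atp8 itself, for which none was found among annotated transcripts, so its smaller difference reflects the larger sum. Of 910 values for 48 named members, 53 changed sign, in 20 members, and the smallest adjusted p in limma was 0.0897.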

Other observations

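Other marker lists, chosen with these data in view, gave the following values, with no gene called. Of 6 macrophage markers 4 were higher in GSK343 tumours at an unadjusted p under 0.05 (median log2 fold change 0.94), as were 4 of 7 fibroblast markers (0.55), beside 10.7% of all lines. Without GSK343 tumours 3 and 5, an alternative chosen after seeing the data, these counts were 0 and 1, beside 4.84% of all lines. None of the tested endothelial (0.24), red blood cell (0.78), white adipocyte (-0.85), keratinocyte (-1.16) or proliferation (-0.06) markers reached it.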
